A study of Mus musculus with 2 samples.

Results

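The 8 genes described here encode the pore-forming α1 subunits of the voltage-gated calcium channels of neurons: Cacna1c and Cacna1d (L type), Cacna1a (P/Q type), Cacna1b (N type), Cacna1e (R type), and Cacna1g, Cacna1h and Cacna1i (T type). They were chosen by gene symbol, and all 8 were found among the 32285 genes of both matrices. Slide-tags, which labels nuclei in a tissue section with position barcodes before droplet-based single-nucleus RNA sequencing (snRNA-seq), was applied to a 20 µm coronal section of the hippocampus of a male C57BL/6J mouse aged 56 days and to a 20 µm sagittal section of the brain of a C57BL/6J embryo at embryonic day 14 (E14). The adult was perfused under isoflurane and the embryo was bought frozen whole, and neither the labels nor the methods name an allele or a treatment. Each group is 1 library, so no difference between adult and E14 could be tested, and age, brain region, depth and software version cannot be told apart.

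Each α1 subunit folds into 4 homologous repeats around a single calcium-selective pore and opens when the membrane depolarizes. L-, P/Q-, N- and R-type channels need a strong depolarization (high-voltage-activated channels). L-type channels couple activity to gene expression, and P/Q- and N-type channels trigger transmitter release at presynaptic terminals. R-type channels open at presynaptic and dendritic sites. T-type channels open close to the resting potential (low-voltage-activated channels), and those of thalamic relay neurons drive rebound bursts. Auxiliary α2δ and β subunits set how many high-voltage-activated channels reach the membrane.

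The stretch of the coding sequence that separates both families is the selectivity filter, where 1 acidic residue from each of the 4 pore loops binds calcium. The third loop is shown because its filter residue differs between the high-voltage-activated and T-type genes. Each line gives 24 bases of coding DNA, 5′ to 3′ on the coding strand, with the codon of the filter residue in capitals, read from GENCODE vM21 transcripts on GRCm38.
Cacna1c: accttcGAAgggtggccagagctg
Cacna1d: acttttGAGggctggcccgcgttg
Cacna1a: acaggaGAGggctggccacaggtc
Cacna1b: acgggaGAGgggtggcccatggtg
Cacna1e: acagggGAAggatggcctcaggtt
Cacna1g: tccaagGATggctgggttgacatc
Cacna1h: tccaagGATggctgggtaaacatc
Cacna1i: tccaagGATggctgggtgaacatc
The capitals encode glutamate in the 5 high-voltage-activated genes and aspartate in the 3 T-type genes. Glutamate filled this place in all 4 loops of the high-voltage-activated genes, whereas the T-type genes had glutamate in loops 1 and 2 and aspartate in loops 3 and 4.

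The third loop lies at chr6:118654452-118656132 in Cacna1c (minus strand, exons 27 and 28), at chr14:30099240-30100716 in Cacna1d (minus strand, exons 27 and 28) and at chr8:84581332-84583562 in Cacna1a (plus strand, exons 27 and 28). It lies at chr2:24650625-24651100 in Cacna1b (minus strand, exons 28 and 29) and at chr1:154443999-154444891 in Cacna1e (minus strand, exons 29 and 30). In these 5 genes an intron splits the 24 bases. In the T-type genes they sit inside exon 24, at chr11:94426456-94426479 in Cacna1g (minus strand), chr17:25383493-25383516 in Cacna1h (minus strand) and chr15:80376801-80376824 in Cacna1i (plus strand). The whole genes span from 59.5 kb (Cacna1h) to 609 kb (Cacna1c), and intronic reads were counted, so levels are compared between genes only per length. Genes on the opposite strand overlap Cacna1a, Cacna1b, Cacna1c, Cacna1d and Cacna1h, and annotated genes on the same strand lie within Cacna1c and Cacna1d. Whether counting used strand is not given in the sources used here, so reads from these neighbours cannot be told apart from those of the channels.

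After filtering, 1609 adult nuclei with 15346746 unique molecular identifiers (UMIs, median 6607 per nucleus) and 9036 E14 nuclei with 58923882 UMIs (median 4204) remained. The 8 genes took 45626 adult and 108179 E14 UMIs. Nuclei were sorted by marker UMIs into 11 adult and 12 E14 classes with at least 15 nuclei, each named after its markers and called "-like" because no deposited annotation was used. The markers of each described class were found in at least 10% of its nuclei for 4 to 8 of the 8 listed, the fewest in E14 hypothalamic-like nuclei. Another 297 adult nuclei (18.5%) and 5136 E14 nuclei (56.8%) met no class, and 91 and 760 showed markers of several classes. Adult class-less droplets were shallow (median 1107 UMIs) with a median of 0.546% of UMIs from Malat1, a nuclear RNA that made up 4.77% in the median adult nucleus. The libraries shared 1 barcode. Levels are counts of UMIs per 1000000 UMIs (CPM) summed over the nuclei of a class, with an exact Poisson 95% interval that covers counting error only. Nuclei are not replicates, and intervals say nothing of spread between mice.

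**Figure D1:**
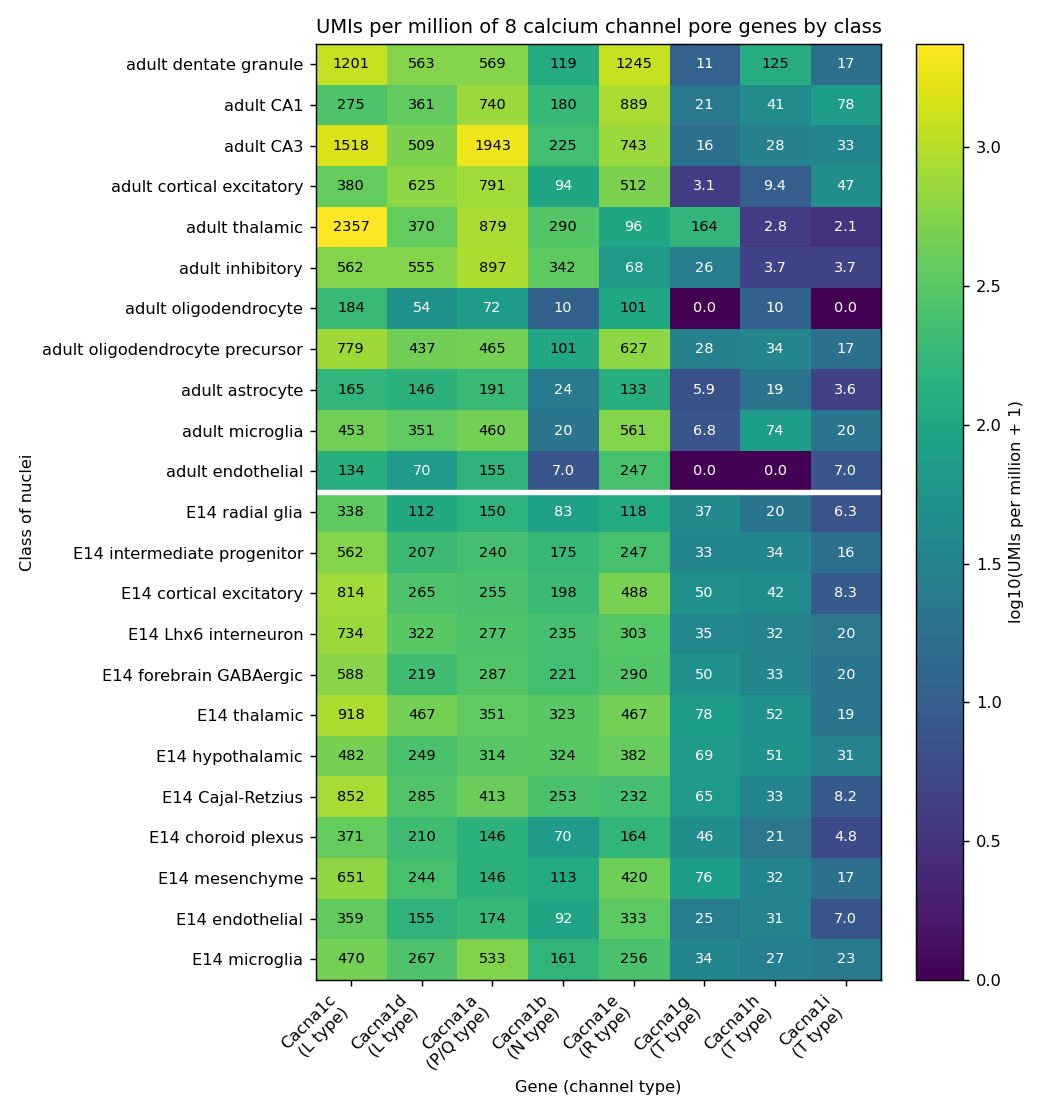
Level of each pore gene (columns, with channel type) in each marker-defined class (rows, adult above E14), as log10(CPM + 1) in colour with the CPM, rounded, written in each cell. Cacna1c reached 2357 CPM in adult thalamic-like nuclei and Cacna1a 1943 CPM in adult CA3-like nuclei, and the T-type genes were above 100 CPM only for Cacna1g in adult thalamic-like (164 CPM) and Cacna1h in adult dentate granule-like nuclei (125 CPM).

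Cacna1c, the L-type pore of most brain neurons and of heart muscle, was highest in thalamic-like and lowest in CA1-like nuclei among the adult neurons. Its level was 2357 CPM (2277 to 2438) in thalamic-like, 1518 in CA3-like, 1201 in dentate granule-like, 562 in inhibitory-like, 379.8 in cortical excitatory-like and 275 CPM (257 to 294) in CA1-like nuclei. Thalamic-like nuclei stood 8.56-fold above CA1-like nuclei (7.94 to 9.24), and CA1-like nuclei stood 4.36-fold below dentate granule-like nuclei (4.06 to 4.69) and 5.52-fold below CA3-like nuclei (5.03 to 6.05). CA1-like nuclei had the highest median UMI count of the adult classes (18280.0). Shares of nuclei with a UMI were compared after each nucleus was thinned to 1000 UMIs, which left out shallower nuclei and kept 1406 adult and 7997 E14 nuclei. A Cacna1c UMI was held by 72.0% of thalamic-like, 71.2% of dentate granule-like and 26.8% of CA1-like nuclei (75.5%, 95.8% and 86.1% before thinning). None of the classes is known to lack these genes, and oligodendrocyte-like nuclei, the adult class with the lowest summed level, are given as the low end, here 8.97% (29.4% before thinning, median 3029 UMIs). Thalamic-like nuclei varied among themselves: the lower quartile of the per-nucleus level was 167 CPM and the upper quartile 2899 CPM, and 71 of 94 held a UMI. A median of 2.30% of their UMIs came from Malat1, and 65 nuclei remained without droplets under 1.5% Malat1. Over the adult library, such droplets had Cacna1c at 0.214 of the level of the others. Their part in this spread was not tested.

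Cacna1d, the second L-type pore, which opens at more negative potentials than Cacna1c, was flatter. Adult levels were 625 CPM in cortical excitatory-like, 563 in dentate granule-like, 555 in inhibitory-like, 509 in CA3-like, 369.8 in thalamic-like and 361 CPM in CA1-like nuclei. From each of these classes to the next lower of all adult classes, down to CA1-like nuclei, the interval of the ratio included 1. Classes further apart in this order did differ, with intervals of 542 to 585 CPM in dentate granule-like and 340.1 to 383 CPM in CA1-like nuclei. Thalamic-like over CA1-like nuclei, 8.56-fold apart in Cacna1c, were at a ratio of 1.02 (0.922 to 1.14) in Cacna1d.

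Cacna1a, the P/Q-type pore of fast transmitter release, was highest in CA3-like nuclei at 1943 CPM (1839 to 2052). This was 2.17-fold (1.95 to 2.41) above the next class, inhibitory-like nuclei at 897 CPM. The other neurons had 879 CPM in thalamic-like, 791 in cortical excitatory-like, 739.7 in CA1-like and 569 CPM in dentate granule-like nuclei. From inhibitory-like down to CA1-like nuclei neighbours did not differ beyond counting error. The ends of this row did, with intervals of 819 to 981 CPM in inhibitory-like and 709.9 to 771 CPM in CA1-like nuclei. Of CA3-like nuclei thinned to 1000 UMIs, 91.2% held a Cacna1a UMI, against 3.42% of oligodendrocyte-like nuclei (97.1% and 8.98% before thinning). Cacna1b, the N-type pore, which shares this presynaptic role, had another order. It was 342 CPM (295 to 395) in inhibitory-like, 289.9 in thalamic-like, 225 in CA3-like, 180.5 in CA1-like, 119 in dentate granule-like and 94.2 CPM in cortical excitatory-like nuclei. The interval of the ratio of inhibitory-like to thalamic-like nuclei, 0.987 to 1.41, included 1.

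Cacna1e, the R-type pore, separated the excitatory cells of the hippocampus from the thalamic-like and inhibitory-like nuclei of the same section. It was 1245 CPM (1214 to 1277) in dentate granule-like, 889 in CA1-like, 743 in CA3-like and 512 CPM in cortical excitatory-like nuclei. Thalamic-like nuclei had 95.5 CPM (80.0 to 113) and inhibitory-like nuclei 68.4 CPM (48.2 to 94.3), which is 9.31-fold (7.83 to 11.2) and 13.0-fold (9.40 to 18.5) below CA1-like nuclei. After thinning, 51.2% of CA1-like and 0% of inhibitory-like nuclei (0 of 35, of which 3 counts would be 8.57%, with an exact upper limit of 10.0%) held a Cacna1e UMI, and 90.2% and 44.4% did before thinning. Each thinning was 1 random draw, and at 2000 UMIs the shares were 78.9% of CA1-like and 23.5% of inhibitory-like nuclei (10.7 to 41.2). In oligodendrocyte-like nuclei the share at 1000 UMIs was 2.14%.

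The 3 T-type genes had their highest levels in different classes, and for Cacna1h and Cacna1i the lead over the next class was within counting error. Cacna1g, the T-type pore known for thalamic burst firing, was 164 CPM (144 to 187) in thalamic-like nuclei, 7.65-fold (5.81 to 10.2) above CA1-like nuclei at 21.4 CPM. The other adult neurons had 25.9 CPM (inhibitory-like), 16.4 (CA3-like), 10.6 (dentate granule-like) and 3.14 CPM (cortical excitatory-like, 1 UMI). Cacna1h, a T-type pore sensitive to nickel, was 125 CPM (115 to 135) in dentate granule-like nuclei and 41.0 CPM in CA1-like nuclei. CA3-like nuclei had 28.4, cortical excitatory-like 9.42, inhibitory-like 3.70 and thalamic-like nuclei 2.83 CPM. Cacna1i, the T-type pore with the slowest kinetics, was 77.7 CPM (68.3 to 88.2) in CA1-like nuclei, then 47.1 in cortical excitatory-like, 32.8 in CA3-like, 16.7 in dentate granule-like, 3.70 in inhibitory-like and 2.12 CPM in thalamic-like nuclei. CA1-like nuclei thus exceeded dentate granule-like nuclei 4.66-fold (3.61 to 6.08) in Cacna1i and were 3.05-fold (2.52 to 3.72) lower in Cacna1h. The interval of the ratio of CA1-like to cortical excitatory-like nuclei in Cacna1i, 0.981 to 3.00, included 1, as did that of dentate granule-like to microglia-like nuclei in Cacna1h, 0.933 to 3.39. All 11 Cacna1h UMIs of the microglia-like class came from 4 deep nuclei, without which it was at 0. Among the adult neuron classes CA1-like nuclei came next in Cacna1h, with the 3.05-fold distance given above. Thalamic-like nuclei held 232 UMIs of Cacna1g but 4 of Cacna1h and 3 of Cacna1i.

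**Figure D2:**
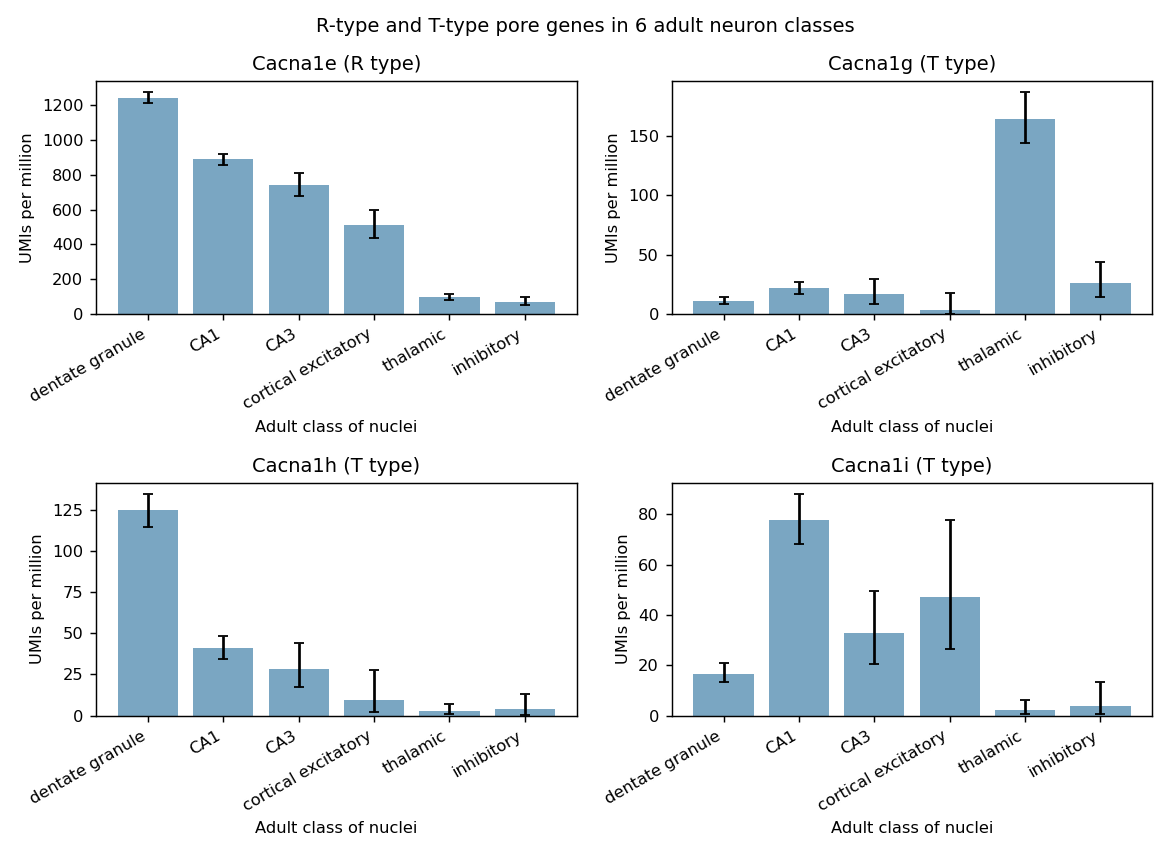
Levels in CPM (bars, linear axes from 0, with a scale of its own for each gene) of the R-type gene Cacna1e and the T-type genes Cacna1g, Cacna1h and Cacna1i in the 6 adult neuron classes, with exact Poisson 95% intervals for counting error as error bars. Cacna1g leads in thalamic-like nuclei at 164 CPM, where Cacna1e stands at 95.5 CPM, against 1245 CPM of Cacna1e in dentate granule-like nuclei.

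The 4 comparisons within the adult section were also counted against all genes, taking a gene as past the limit when its ratio was at least 2-fold and the pair held at least 20 UMIs. All 8 pore genes had enough UMIs in each. For CA1-like over dentate granule-like nuclei, 2 were higher (Cacna1i and Cacna1g) and 2 lower (Cacna1c and Cacna1h), beside 8.14% and 12.7% of all genes. The Cacna1g ratio in that pair lay at the limit, 2.02 (1.38 to 2.96). For CA1-like over CA3-like nuclei, 1 was higher (Cacna1i, 2.37-fold, 1.53 to 3.85) and 2 lower (Cacna1c and Cacna1a), beside 12.2% and 7.40%. For thalamic-like over CA1-like nuclei, 2 were higher (Cacna1c and Cacna1g) and 3 lower (Cacna1e, Cacna1h and Cacna1i), beside 15.4% and 13.7%. For inhibitory-like over CA1-like nuclei, 1 was higher (Cacna1c, 2.04-fold, 1.79 to 2.33) and 3 lower (the same 3 genes as in the thalamic pair), beside 14.5% and 13.0%. The median ratios of the 8 genes in these pairs, 1.01, 0.998, 1.11 and 1.21, lay near those of all genes, 0.921, 1.04, 1.05 and 1.09, and members lay on both sides of 1 in each.

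At E14, Cacna1c ran from 338 CPM in radial glia-like to 918 CPM in thalamic-like nuclei, with 852 in Cajal-Retzius-like, 814 in cortical excitatory-like, 734 in Lhx6 interneuron-like, 588 in forebrain GABAergic-like and 482 CPM in hypothalamic-like nuclei. Cacna1d ran from 112 CPM in radial glia-like to 467 CPM in thalamic-like nuclei, and Cacna1b from 69.5 CPM in choroid plexus-like to 324 and 323 CPM in hypothalamic-like and thalamic-like nuclei. Cacna1e was 488 CPM in cortical excitatory-like, 467 in thalamic-like, 382 in hypothalamic-like, 303 in Lhx6 interneuron-like and 118 CPM in radial glia-like nuclei. It was also 420.4 CPM in mesenchyme-like nuclei, which carry connective tissue markers. Of the T-type genes, Cacna1g lay between 25.4 and 77.6, Cacna1h between 19.7 and 51.7 and Cacna1i between 4.79 and 31.1 CPM. These levels are not scaled to gene length, and the genes span 65.8, 59.5 and 111 kb. Scaled to gene span, the T type took from 19.0% (microglia-like) to 32.9% (mesenchyme-like) of the summed level of the 8 genes at E14.

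Radial glia-like nuclei, named after stem cells of the embryonic brain, and cortical excitatory-like nuclei were compared in the same E14 library. Whether the radial glia-like class was limited to the cortex was not tested, so it is not shown to hold the ancestors of these neurons. It held 1385 CPM of the 8 thalamic, 1166 CPM of the 8 Lhx6 interneuron and 116 CPM of the 8 cortical excitatory markers. These sums do not place the class, since cortical excitatory-like nuclei held 805 CPM of the thalamic and 1259 CPM of the Lhx6 interneuron markers. All 8 ratios of neuron-like over radial glia-like nuclei were above 1, and 5 were at least 2-fold: Cacna1e 4.13 (3.69 to 4.64), Cacna1c 2.41 (2.24 to 2.59), Cacna1b 2.38 (2.06 to 2.76), Cacna1d 2.37 (2.09 to 2.69) and Cacna1h 2.14 (1.57 to 2.94). None was at least 2-fold lower, beside 6.62% of all genes higher and 16.1% lower. Cacna1a was 1.70-fold (1.52 to 1.91) and Cacna1g 1.34-fold (1.05 to 1.72) higher, and the interval of Cacna1i, 0.706 to 2.51, included 1. The median ratio was 2.25 for the pore genes and 0.830 for all genes. Intermediate progenitor-like nuclei lay between them for Cacna1a (239.8 CPM), Cacna1b (175), Cacna1c (562), Cacna1d (207), Cacna1e (247) and Cacna1h (34.1 CPM). Their Cacna1g (32.9 CPM) was below the 37.3 and 50.1 CPM of both classes and their Cacna1i (16.5 CPM) above 6.26 and 8.30 CPM. Without droplets under 1.5% Malat1 the count of 5 dropped to 3. Thalamic-like against cortical excitatory-like E14 nuclei had 1 pore gene higher (Cacna1i, 2.27-fold, 1.40 to 3.79) and 0 lower, beside 7.34% and 5.60%.

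Adult and E14 nuclei were then compared in classes that share markers, thalamic-like with thalamic-like, cortical excitatory-like with cortical excitatory-like, and adult inhibitory-like with E14 Lhx6 interneuron-like. The Lhx6 class covers those interneurons that come from the medial ganglionic eminence, and the adult class holds inhibitory neurons of any origin, so this pair is the loosest. The adult cortical excitatory-like class holds only 19 nuclei. Foxp2, a gene of deep-layer cells, was among its leading genes but is also one of the markers that chose it. The layer of these nuclei was not tested. The pairs share the libraries and are not independent of each other.

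**Figure D3:**
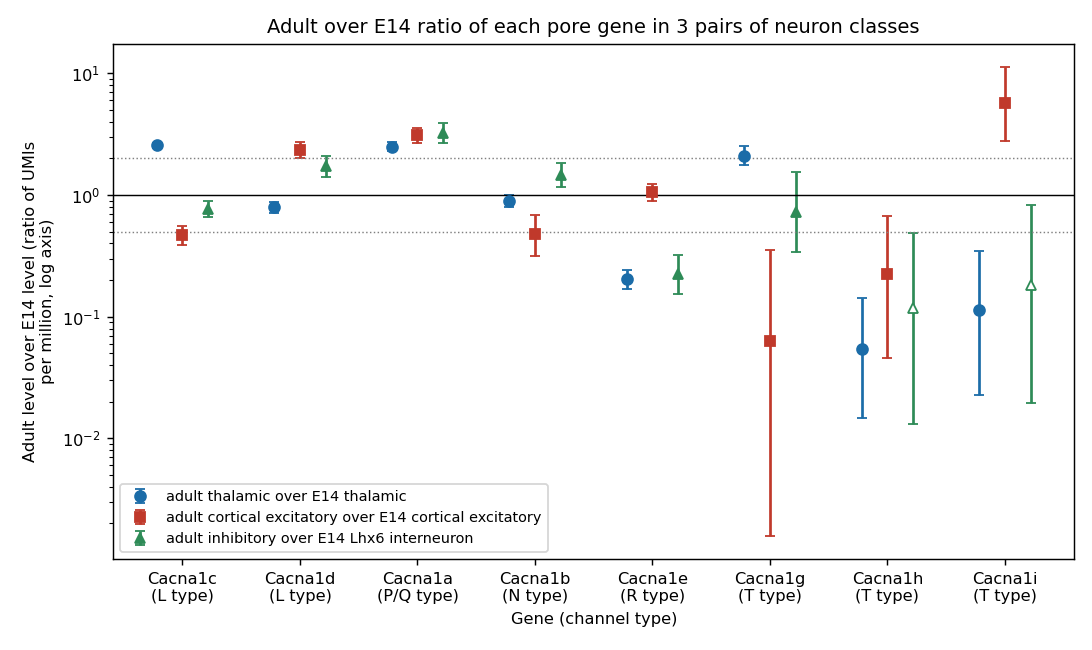
Ratio of adult to E14 CPM for each pore gene in the thalamic-like, cortical excitatory-like and inhibitory-like (adult) over Lhx6 interneuron-like (E14) pairs, on a log axis, with exact 95% intervals for counting error, dotted lines at the 2-fold limit and open symbols where the pair held under 20 UMIs. Cacna1a stands at 2.50, 3.10 and 3.23 in the 3 pairs, whereas Cacna1e stands at 0.204 and 0.226 in the thalamic and inhibitory pairs and at 1.05 in the cortical pair.

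Cacna1a was higher in the adult in each neuron pair: 879 against 351 CPM in thalamic-like (2.50-fold, 2.30 to 2.72), 791 against 255 CPM in cortical excitatory-like (3.10-fold, 2.68 to 3.58), and 897 against 277 CPM in the inhibitory pair (3.23-fold, 2.69 to 3.91). Its presynaptic counterpart Cacna1b had 0.898 (0.798 to 1.01), 0.476 (0.318 to 0.687) and 1.46 (1.16 to 1.84) in the same order. In each pair the interval of Cacna1b lay below that of Cacna1a.

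The L-type genes split by class. In thalamic-like nuclei Cacna1c was 2.57-fold higher in the adult (2.44 to 2.70), and Cacna1d was at 0.792 (0.715 to 0.876). In cortical excitatory-like nuclei the signs were opposite, with Cacna1c 2.14-fold lower (1.78 to 2.59) and Cacna1d 2.35-fold higher (2.00 to 2.75). In the inhibitory pair Cacna1c was at 0.767 (0.658 to 0.893) and Cacna1d at 1.72 (1.42 to 2.09).

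Cacna1e was lower in adult thalamic-like nuclei, 95.5 against 467 CPM, or 4.89-fold (4.10 to 5.88). It was also lower in adult inhibitory-like than in E14 Lhx6 interneuron-like nuclei, 68.4 against 303 CPM, or 4.43-fold (3.09 to 6.52). In cortical excitatory-like nuclei both ages had close levels, 512 and 488 CPM (ratio 1.05, 0.886 to 1.23). Over the adult neuron-like classes Cacna1e ran from 68.4 to 1245 CPM, and over the E14 neuron-like classes from 232 to 488 CPM. Over all nuclei Cacna1e was 2.30-fold higher in the adult (2.25 to 2.35). The adult library held 353 dentate granule-like nuclei, a class with no E14 counterpart here.

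Among the T-type genes, Cacna1g was 2.11-fold higher in adult thalamic-like nuclei (1.76 to 2.54), while Cacna1h was 18.3-fold lower (7.01 to 68.0, 4 adult UMIs) and Cacna1i 8.88-fold lower (2.90 to 44.3, 3 adult UMIs). In cortical excitatory-like nuclei Cacna1i was 5.68-fold higher in the adult (2.78 to 11.2, 15 adult UMIs), Cacna1g was at 0.0626 (0.00158 to 0.354, 1 adult UMI) and Cacna1h at 0.223 (0.0455 to 0.668, 3 adult UMIs). These ratios rest on the 19 adult nuclei. In the inhibitory pair Cacna1g was at 0.732 (0.340 to 1.54), and Cacna1h and Cacna1i had under 20 UMIs in the pair. Thinned to 1000 UMIs, 26.8% of adult and 5.30% of E14 thalamic-like nuclei held a Cacna1g UMI (71.3% and 34.0% before thinning). The thinned shares come from 1 random draw, in 82 adult and 472 E14 nuclei. They stand further apart than the levels, 164 and 77.6 CPM.

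Counted with the 2-fold limit, 3 of 8 pore genes were higher and 3 lower in adult thalamic-like nuclei, beside 16.2% and 23.3% of all genes. In cortical excitatory-like nuclei 3 were higher and 4 lower, beside 18.6% and 27.7%. In the inhibitory pair 6 had enough UMIs, of which 1 was higher and 1 lower, beside 17.4% and 18.5%. Over all nuclei 2 were higher (Cacna1a and Cacna1e) and 0 lower, beside 17.2% and 24.1%. The median ratios of the pore genes in the thalamic, cortical and inhibitory pairs were 0.845, 0.762 and 1.11, beside 0.907, 0.906 and 0.951 for all genes.

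Scaled to gene length, the 8 genes can be set against each other. With CPM per 100 kb of gene span, each gene's share of the sum of the 8 scaled levels was taken. P/Q-type Cacna1a had 50.5% of the sum in CA3-like nuclei, 42.4% in the cortical class, 42.0% in inhibitory-like and 33.2% in CA1-like nuclei. In thalamic-like nuclei the L type had 36.8%, mostly Cacna1c (30.3%), and the T type had 20.1%, nearly all Cacna1g (19.5%). In dentate granule-like nuclei Cacna1e had the highest share at 22.6% and Cacna1h had 18.8%, but Cacna1c led when levels were scaled to exon length. The T-type share was between 5.76% and 21.6% in adult neuron-like classes and between 19.7% and 28.9% in E14 neuron-like classes. Scaled to exon length it was smaller, 1.75% to 8.16% in the adult and 6.84% to 11.5% in the E14 neuron-like classes. Shares of 1 sum are not independent of each other.

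**Figure D4:**
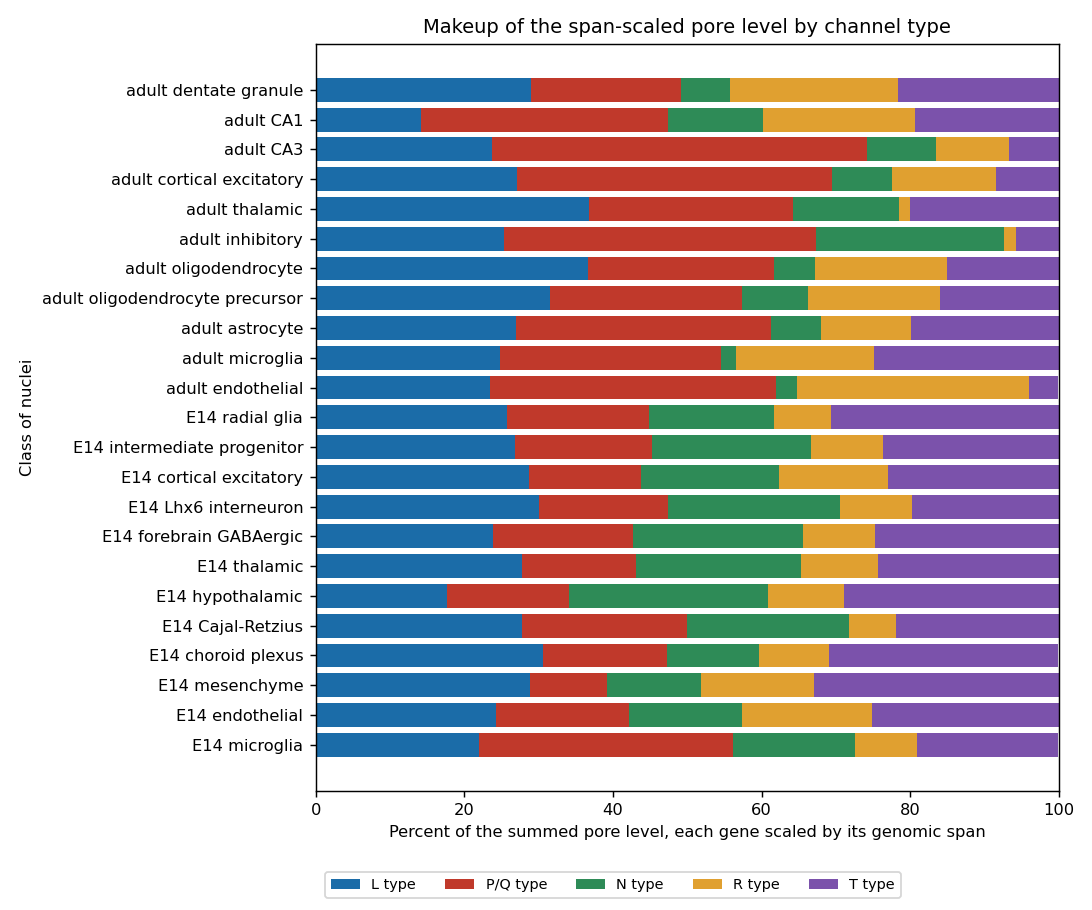
Share of the summed span-scaled level (CPM per 100 kb of gene span, percent) taken by the L, P/Q, N, R and T types in each adult and E14 class, as stacked bars from 0 to 100. P/Q type takes 50.5% in adult CA3-like nuclei, and R type takes 1.52% in adult thalamic-like and 1.63% in adult inhibitory-like nuclei.

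The summed unscaled level of the 8 genes was highest in adult CA3-like nuclei at 5016 CPM, followed by thalamic-like nuclei at 4159.8 and dentate granule-like nuclei at 3849 CPM. It was 432 CPM in oligodendrocyte-like nuclei, and 864 CPM in E14 radial glia-like against 2675 CPM in E14 thalamic-like nuclei. Thinned to 2000 UMIs, 98.0% of adult dentate granule-like, 93.2% of thalamic-like and 89.4% of CA1-like nuclei held UMIs of at least 2 of the 8 genes. At E14 it was 91.9% of thalamic-like, 70.5% of cortical excitatory-like and 29.9% of radial glia-like nuclei, and 6.28% of adult oligodendrocyte-like nuclei.

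The auxiliary and partner genes, 21 in all, comprised α2δ and β subunits, the other α1 genes (Cacna1s, Cacna1f), the leak channel Nalcn, Stac adaptors, calcium-binding partners such as Cabp1 and presynaptic scaffolds. In thalamic-like nuclei 18 had enough UMIs, of which 8 were at least 2-fold higher in the adult and 3 lower, beside 16.2% and 23.3% of all genes. In cortical excitatory-like nuclei 8 of 16 were higher and 3 lower, beside 18.6% and 27.7%, and in the inhibitory pair 6 of 15 were higher and 2 lower, beside 17.4% and 18.5%. The median ratios of the list were 1.47, 2.58 and 1.88, and those of all genes 0.907, 0.906 and 0.951. The β subunit Cacnb4 was at 3.80, 5.08 and 2.24 in the 3 pairs, while the β subunit Cacnb3 was at 0.297, 0.655 and 0.331. Rims1 and Rimbp2, scaffolds that tether calcium channels at release sites, were at 2.28, 4.24 and 2.91 and at 2.09, 4.59 and 5.03. The α2δ gene Cacna2d3 was at 0.0366 in cortical excitatory-like nuclei (7 adult UMIs), or 27.3-fold lower in the adult (13.2 to 68.0). At E14, cortical excitatory-like over radial glia-like nuclei had 2 of 17 higher (Cabp1 10.6, Cacna2d1 3.51) and 1 lower (Cacnb2 0.480), beside 6.62% and 16.1% of all genes, with median ratios of 1.28 for the list and 0.830 for all genes.

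Among the non-neuronal classes, adult oligodendrocyte-like nuclei had 184 CPM of Cacna1c and 0 UMIs of Cacna1g and Cacna1i, which allows up to 3.43 CPM of each (3 counts). Astrocyte-like nuclei had 191 CPM of Cacna1a and 165 of Cacna1c. Oligodendrocyte precursor-like nuclei stood closer to neurons, with 779 CPM of Cacna1c, 627 of Cacna1e and 465 of Cacna1a, but 1 of 26 nuclei, with 37018 UMIs, held 66.1% of the Cacna1e and 38.8% of the Cacna1c UMIs. Without that nucleus Cacna1c was 601 and Cacna1e 268 CPM.

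The E14 microglia-like class was led by Mrc1, Stab1, Dab2 and F13a1, which macrophages at the borders of the brain also express. Mrc1 is itself one of the markers that chose this class, in the place of Apbb1ip in the adult list. Microglia and such macrophages cannot be told apart in the E14 class, and the adult and E14 classes were chosen by different lists. In E14 microglia-like nuclei Cacna1a was 533 CPM (477 to 594), the highest of the E14 classes and 1.29-fold (1.12 to 1.48) above Cajal-Retzius-like nuclei at 413 CPM. After thinning, 41.1% of these nuclei held a Cacna1a UMI, against 33.2% of Cajal-Retzius-like and 7.46% of choroid plexus-like nuclei (75.0%, 77.5% and 61.4% before thinning). Without the 12 nuclei above 3 times the class median depth it was 598 CPM. In adult microglia-like nuclei, 83 Cacna1e UMIs (561 CPM) gave a ratio of 2.19 (1.66 to 2.87) to E14. They all came from 4 of 39 nuclei, which held 24, 23, 21 and 15 Cacna1e UMIs and between 12552 and 19678 UMIs in total, while the other 35 nuclei held 0 in 79523 UMIs (median 2034). The same 4 nuclei held 89, 5, 72 and 48 UMIs of the 8 dentate granule markers, and the other 35 nuclei held 128. Of the 342 marker UMIs in the class, 157 came from Dock10. This marker was at 1061 CPM in microglia-like and 752 CPM in dentate granule-like nuclei, so the counts do not measure granule RNA alone. All 8 markers summed to 2311 and 4746 CPM in these classes. By doublet score, 0 of the 4 nuclei were among the 21 highest of the adult library, which were taken as likely doublets. The automatic threshold of this score did not work here, so whether the 4 nuclei are doublets cannot be told from it. Without the 4 nuclei Cacna1e, Cacna1h, Cacna1b and Cacna1i were at 0 and Cacna1a, Cacna1d and Cacna1c at 314, 289 and 62.9 CPM. The part of dentate granule RNA in the 4 nuclei was not tested further.

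The microglia pair had 7 pore genes with enough UMIs, of which 2 were higher (Cacna1e and Cacna1h) and 2 lower (Cacna1b and Cacna1g), beside 13.7% and 25.3% of all genes. Without the nuclei above 3 times the class median depth, 0 were higher and 3 lower, among them Cacna1c at 0.148. The endothelial pair had 7 counted, 0 higher and 5 lower (Cacna1b, Cacna1c, Cacna1d, Cacna1g and Cacna1h), beside 16.5% and 31.7%. Cacna1g and Cacna1h had 0 adult endothelial-like UMIs, and the upper bounds of their ratios were 1.08 and 0.874. In adult endothelial-like nuclei 1 nucleus with 18747 UMIs held 17 of the 19 Cacna1c and all 10 Cacna1d UMIs. Without it Cacna1c was 16.2 CPM and Cacna1d was at 0. Without likely doublets 6 genes were lower, with Cacna1e at a ratio of 0.419.

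Adult droplets under 1.5% Malat1, 317 of them, were set against the other 1292. The ratio of their levels was 0.178 (0.127 to 0.243) for Cacna1d, 0.214 for Cacna1c, 0.296 for Cacna1b, 0.320 for Cacna1e and 0.452 (0.384 to 0.529) for Cacna1a. The T-type ratios of 0.653 (Cacna1i), 0.758 (Cacna1h) and 0.812 (Cacna1g) had intervals that included 1.

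Over the 23 classes, the genes whose log-scale pattern was most like each pore gene were sought among 8754 genes. The highest Pearson correlations, given here for all but Cacna1c, were 0.933 for Cacna1d with Fgf14, 0.929 for Cacna1a with Atp6v0a1, 0.924 for Cacna1b with Ptprn2 and 0.901 for Cacna1g with Scai. They were 0.872 for Cacna1h with Mrtfa, 0.812 for Cacna1e with Sh3bp5 and 0.775 for Cacna1i with Cacna1e. Rims1 came second for Cacna1a at 0.903. Within the 8 genes, Cacna1a and Cacna1d had 0.835 and Cacna1e and Cacna1g had -0.076. The classes share 2 libraries, their depth and their makeup, so these are descriptions of 23 points and carry no p-value.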

How the data were processed

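Slide-tags snRNA-seq was done on 1 adult hippocampus section and 1 E14 brain section. The authors aligned reads to mm10, intronic reads included, and deposited raw UMI counts per gene and nucleus barcode. The file headers name Cell Ranger 6.1.2 (adult) and 7.0.1 (E14). The methods also name CellBender for embryo libraries, but the E14 header is that of Cell Ranger, so whether background was removed is not settled.

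A droplet needed 500 UMIs, with a mitochondrial share below 5%, which 1609 of 1661 adult and 9036 of 9037 E14 droplets met. For each nucleus a list of 8 markers scored the mean of their rates over the library rate, capped at 5. The best list won with a score of at least 1.5 and 3 markers detected, and a runner-up above 0.6 of it made the nucleus mixed. This rule was set after marker UMIs were seen. Classes under 15 nuclei are not described. Scrublet (scanpy 1.11.5) marked 0.373% and 0.0443% with its automatic threshold, so it did not work. Doublets stayed in, and the 21 and 653 highest scores were left out as an alternative.

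Counts were summed per class as CPM with exact Poisson 95% intervals. Shares have exact Clopper-Pearson intervals, as found and thinned to 1000 UMIs. Ratios have exact conditional binomial intervals, and a gene counted as past the limit at 2-fold with at least 20 UMIs in the pair. A count of 0 was taken to allow 3 counts. All intervals cover counting error only, and no p-value was computed. The members, the auxiliary list and the markers were chosen with earlier results of these data known. The text names the pore genes, the auxiliary and partner genes, the markers, and for each pore gene those of the 3 genes with the highest correlation of log2(CPM + 5) over classes that the text singles out. Some of these genes are not reported here. Filter codons were read from the longest open reading frame. Scripts ran in Python 3.11.15 with numpy 2.4.6 and scipy 1.17.1 and were tested on simulated data.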

Additional observations from a re-analysis of the deposited data

Results flagged for a closer look

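Of the pore genes, 6 were at least 2-fold higher in the adult in 1 matched pair of classes and at least 2-fold lower in another. The intervals had to exclude 1 in both. The same held for 699 of the 11468 genes that could be counted in at least 2 pairs. Whether an interval excludes 1 depends on UMI counts, in which those genes were not matched to the pore genes. Cacna1e and Cacna1h met this rule only through 4 deep adult microglia-like nuclei, without which both ratios were 0. The difference between pairs was not tested in any of them, since each age is 1 library. Cacna1c was at 2.57 in the thalamic pair, 0.467 in the cortical excitatory pair and 0.373 in the endothelial pair. Cacna1d was at 2.35 in the cortical excitatory pair and 0.454 in the endothelial pair. The endothelial values of both L-type genes rest on 1 adult nucleus, and without likely doublets, which leaves out that nucleus, they were 0.0468 and 0. Cacna1e was at 2.19 in the microglia pair, where all adult UMIs came from these 4 nuclei, at 0.204 in the thalamic pair and at 0.226 in the inhibitory pair. Cacna1g was at 2.11 in the thalamic pair and 0.0626 in the cortical excitatory pair (1 adult UMI). Cacna1h was at 2.71 in the microglia pair, with all 11 adult UMIs in the same 4 nuclei, 0.0547 in the thalamic pair and 0.223 in the cortical excitatory pair. Cacna1i was at 5.68 in the cortical excitatory pair and 0.113 in the thalamic pair.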

How the results depend on the processing

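No paired analysis was possible because each group holds 1 library. Over all alternatives, 110 levels moved by more than their counting interval and 1282 did not, and 47 ratios moved, 2 turned direction and 679 did neither. Both of these were in the microglia pair without nuclei above 3 times the class median depth, an alternative chosen after seeing the data, where Cacna1e and Cacna1h fell to a ratio of 0. Thinning to 2000 UMIs in place of 1000 moved 114 shares and left 86 within their interval.

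Counts of pore genes past the limit changed by over 1.5 times as follows, and smaller changes are given only where they touch the text. The cortical excitatory pair had 2 higher at 3-fold, the endothelial pair 6 lower without likely doublets, and the microglia pair 3 lower without deep nuclei. With a 3-fold limit, higher counts became 0 for adult over E14 thalamic-like, microglia-like and all nuclei, for CA1-like over CA3-like, inhibitory-like over CA1-like and E14 thalamic-like over cortical excitatory-like, and 1 for CA1-like over dentate granule-like and E14 cortical excitatory-like over radial glia-like nuclei, and lower counts became 1 for CA1-like over CA3-like, 2 for the cortical excitatory pair and 3 for the endothelial pair. With at least 100 UMIs they became 0 for E14 thalamic-like over cortical excitatory-like (higher), 3 for the endothelial pair (lower) and 1 in each direction for the microglia pair, and with at least 1 UMI the inhibitory pair had 3 lower. After division by the median ratio of all genes, the cortical excitatory pair had 2 lower and inhibitory-like over CA1-like 0 higher. Without droplets under 1.5% Malat1, E14 cortical excitatory-like over radial glia-like had 3 higher. Without likely doublets, E14 thalamic-like over cortical excitatory-like had 0 higher and the microglia pair 1 lower. Without deep nuclei, the microglia pair had 0 higher and CA1-like over dentate granule-like 1 higher, as it also had under the stricter marker rule and under 1% mitochondrial UMIs. The stricter rule left the microglia pair with 1 lower and adult cortical excitatory-like nuclei under 15, with no value.

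Counts of auxiliary and partner genes changed by over 1.5 times as follows. At 3-fold they became 0 for E14 cortical excitatory-like over radial glia-like (lower) and E14 thalamic-like over cortical excitatory-like (higher), 2 in each direction for inhibitory-like over CA1-like, 1 for the inhibitory pair (lower), 3 for thalamic-like over CA1-like (lower) and 3 for the thalamic pair (higher). With at least 1 UMI the lower counts were 5 for CA1-like over CA3-like, 6 for the cortical excitatory, 10 for the endothelial, 8 for the microglia and 5 for the thalamic pair. With at least 100 UMIs the lower counts were 1 for CA1-like over CA3-like, 1 for CA1-like over dentate granule-like, 0 for the inhibitory, 2 for the microglia and 1 for the thalamic pair, and thalamic-like over CA1-like had 3 higher. Over all nuclei 2 were lower without droplets under 1.5% Malat1 and under 1% mitochondrial UMIs. The inhibitory pair had 1 lower under 1% mitochondrial UMIs, without likely doublets and without deep nuclei. E14 thalamic-like over cortical excitatory-like had 5 higher without likely doublets and 6 without deep nuclei, and the microglia pair without deep nuclei had 2 higher and 8 lower. Division by the median ratio gave E14 cortical excitatory-like over radial glia-like 5 higher and 0 lower. The cause of these changes was not tested, apart from the fewer or more genes that a limit lets in.

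Depth limits the T-type genes most, since several ratios rest on 1 to 4 adult UMIs, and the adult cortical excitatory-like, CA3-like, inhibitory-like, microglia-like and endothelial-like classes hold 19 to 40 nuclei. Mice, sections and captures were not replicated, so spread between animals is unknown.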
